A study of Mus musculus with 4 samples.

Results

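Hoxa13, Hoxd13 and Evx2 are homeobox genes of the posterior body. In embryonic mouse testis RNA the authors called all of them higher in the ibuprofen with acetaminophen library than in the aspirin with acetaminophen library. Hoxa13 and Hoxd13 were also called higher than in the control library, and Hoxa13 alone higher than in the acetaminophen library. Evx2 had no call against either. The members were chosen by gene name from the deposited tables, as 3 of the 235 genes that carry a name in any of the 6 pairwise tables. The choice rested on the measured values themselves, because a gene is in a table only if the authors called it different between that pair of libraries. The differences below are therefore given as descriptions, with no test.

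Hox genes lie in clusters and are switched on in their order along the chromosome, so that genes at one end mark the head side of the trunk and genes at the other end its tail side. Members of group 13 stand at the posterior end. In the mouse Hoxa13 and Hoxd13 shape the digits and the genital tubercle, the bud of the external genitalia, and act in the hindgut and urogenital sinus. Evx2 encodes an even-skipped type homeobox factor, lies beside Hoxd13 at the end of the HoxD cluster, and shares with it the distant enhancers that drive expression in digits and genital bud. None of these genes is a known marker of the germ cells, Sertoli cells or Leydig cells of the fetal testis.

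The samples were gonads of wildtype CD1 mouse embryos at stage E13.5, cut away from the mesonephros, the transient kidney to which the gonad is attached. The 4 groups were IBU+ACE (ibuprofen with acetaminophen), ASP+ACE (aspirin with acetaminophen), ACE+ACE (acetaminophen) and Control (treatment labelled none), with 1 library each. The series asks how exposure in the womb to these drugs bears on testis formation. The labels state neither doses nor days of exposure, nor how many embryos made up a library. Since every group is 1 library, no difference has a replicate check and no error can be given, and what is compared is libraries, not conditions.

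The deposited level of a gene is taken here as FPKM, a fragment count scaled to transcript length and to the mapped total of the library. "Rose" and "fell" are used of genes that the authors' deposited tables list, and every row of those tables has a p-value of 5e-05 and a q-value of 0.0310. A gene without a row in a table had no call there, which does not mean that its levels were equal. The number of reads behind each level is unknown.

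Each member carries a homeobox, 180 bases that encode the DNA-binding homeodomain. These are shown because they define the family and because similar copies could in principle share reads. They were taken from GENCODE M21 transcripts (mouse GRCm38), and capitals mark bases 142 to 159 of the box, counted from 1 at its 5′ end, which encode the core of the helix that reads DNA.
Hoxa13 homeobox: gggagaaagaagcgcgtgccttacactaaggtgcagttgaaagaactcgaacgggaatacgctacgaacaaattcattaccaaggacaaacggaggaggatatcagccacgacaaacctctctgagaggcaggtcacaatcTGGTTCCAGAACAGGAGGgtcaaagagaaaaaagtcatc
Hoxd13 homeobox: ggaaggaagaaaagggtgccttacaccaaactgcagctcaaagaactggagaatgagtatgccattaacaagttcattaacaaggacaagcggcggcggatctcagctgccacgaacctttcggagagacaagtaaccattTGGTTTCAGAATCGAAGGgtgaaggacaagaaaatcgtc
Evx2 homeobox: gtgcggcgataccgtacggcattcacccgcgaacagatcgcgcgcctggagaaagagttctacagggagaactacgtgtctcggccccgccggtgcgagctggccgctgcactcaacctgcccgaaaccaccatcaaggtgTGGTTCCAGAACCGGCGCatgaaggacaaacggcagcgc

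The boxes of Hoxa13 and Hoxd13 were identical at 133 of 180 bases, and 52 of their 60 codons stood for the same residue. By bases Hoxc13, a group 13 gene of the HoxC cluster, was slightly closer to both, with 139 identical to Hoxa13 and 135 to Hoxd13. By residues Hoxc13 was closer to Hoxa13, at 55 of 60 codons, but not to Hoxd13, at 51. Evx2 was further off, with 83 bases identical to Hoxa13 and 87 to Hoxd13. The box of Evx1, the counterpart of Evx2 beside the HoxA cluster, shared 148 bases with it. The longest run of bases shared between annotated transcripts was 14 for Hoxa13 and Hoxd13 and 32 for Evx2 and Evx1, against reads of 75 nt. Of the 75-base windows in the annotated transcripts of each gene, 2761 for Hoxa13, 2409 for Hoxd13 and 4117 for Evx2, 0 occurred exactly in an annotated transcript of any other gene on either strand. Mismatched alignments were not examined.

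Hoxa13 was the member with a value in all 4 libraries. It lies on chromosome 6 (GRCm38, 52257694 to 52260880, minus strand), and its deposited locus equals the annotated gene exactly. Its level was 9.13 FPKM in IBU+ACE, 0.224 FPKM in ASP+ACE, 0.323 FPKM in ACE+ACE and 0.0961 FPKM in Control. IBU+ACE alone was high, and the other 3 libraries were all below 1 FPKM. In whole-gonad RNA a lower level can reflect fewer cells of a type or less RNA per cell, and these cannot be told apart. The deposited log2 fold change of Hoxa13 was 6.57 for IBU+ACE over Control, a 95.0-fold difference. It was 5.35 over ASP+ACE, or 40.8-fold, and 4.82 over ACE+ACE, or 28.3-fold. These sizes depend on the low levels: with 1 FPKM added to both levels Hoxa13 was 9.24-fold higher over Control, 8.27-fold over ASP+ACE and 7.66-fold over ACE+ACE.

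The 3 fold changes share their numerator, the IBU+ACE value, and differ in their denominator. Hoxa13 in ACE+ACE was 3.36 times its Control level, and in ASP+ACE 2.33 times. The authors' deposited tables list no difference in Hoxa13 between ASP+ACE, ACE+ACE and Control, so the order of these low levels has no call behind it.

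Hoxd13, on chromosome 2 (GRCm38, 74668310 to 74671599, plus strand), had the highest level of the members. Its level was 11.0 FPKM in IBU+ACE, 0.0821 FPKM in ASP+ACE and 0.0680 FPKM in Control. As with Hoxa13, IBU+ACE was high and the values in ASP+ACE and Control were both below 0.1 FPKM. The deposited log2 fold change was 7.33 over Control, a 161-fold difference, and 7.06 over ASP+ACE, a 133-fold difference. With 1 FPKM added to both levels these became 11.2-fold over Control and 11.05-fold over ASP+ACE. Hoxd13 is not listed between IBU+ACE and ACE+ACE, so no ACE+ACE level could be read and no statement about that pair is possible.

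Evx2, also on chromosome 2 (GRCm38, 74652991 to 74659557, minus strand), is listed in a single table. Its level was 1.82 FPKM in IBU+ACE, and it was listed at 0 in ASP+ACE. A fold change against 0 has no meaning, and none is given. Evx2 has no row against Control or ACE+ACE, and its levels in those libraries are not known from the tables.

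**Figure D1:**
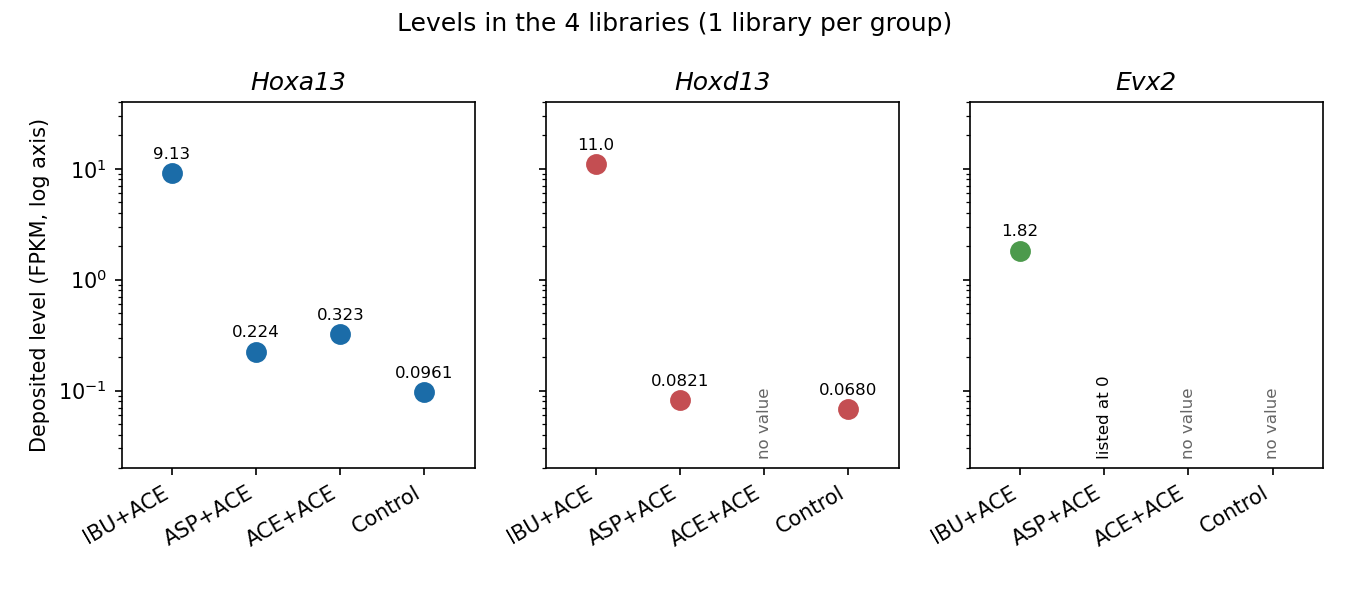
Deposited levels of Hoxa13, Hoxd13 and Evx2 in each library, in FPKM on a log axis, with 1 point per library and no error because each group is 1 library. Among the libraries with a value, IBU+ACE holds the highest for each gene (9.13, 11.0 and 1.82 FPKM). Libraries without a row for the gene are marked as having no value.

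FPKM is scaled to transcript length, and on that basis alone levels are set against each other across genes here. Which isoform a row stands for is not stated, so these ratios are rough. In IBU+ACE the Hoxd13 level was 1.20 times the Hoxa13 level, and the Evx2 level was 0.166 times the Hoxd13 level. In the low libraries the order of the Hox genes was the other way round, with Hoxd13 at 0.367 times Hoxa13 in ASP+ACE and 0.708 times in Control. At such low levels, and with the depth unknown, the counting error of these ratios cannot be given.

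Counted over tables, 2 of the 3 members were listed as higher in IBU+ACE than in Control, a table in which 81.6% of the 185 listed transcripts were higher. All 3 were listed as higher in IBU+ACE than in ASP+ACE, where 92.0% of 174 were, and 1 was listed as higher in IBU+ACE than in ACE+ACE, where 89.2% of 232 were. No member is listed in the tables of ASP+ACE over Control, ACE+ACE over Control or ASP+ACE over ACE+ACE, with 0 of 3 in each. All these calls use the same IBU+ACE library.

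By size of the fold change the Hox genes stood at or near the top of the tables. Among transcripts with a value above 0 in both libraries, Hoxd13 had the highest log2 fold change of 155 in IBU+ACE over Control and of 156 in IBU+ACE over ASP+ACE. Hoxa13 ranked 2 against Control, 3 against ASP+ACE and 4 of 200 against ACE+ACE. These ranks depend on the low denominators: with 1 FPKM added to every level, an alternative chosen after seeing the data, Hoxd13 ranked 1 over Control and 2 over ASP+ACE, below Col2a1, the cartilage collagen gene. Hoxa13 then ranked 3 over Control, 4 over ASP+ACE and 4 over ACE+ACE, with Col2a1 above it in each. The median log2 fold change of all such transcripts was 1.40 over Control, 1.75 over ASP+ACE and 1.70 over ACE+ACE. A log2 fold change of at least 3 was reached by 2 members over Control, where 10.8% of listed transcripts reached it. It was reached by 2 over ASP+ACE, where 12.1% did, and by 1 over ACE+ACE, where 9.48% did. Transcripts listed at 0 in the compared library have no finite fold change and stay in these shares as not reaching 3. They number 24 for Control, 14 for ASP+ACE, with Evx2 among them, and 27 for ACE+ACE. With 1 FPKM added to both levels, a log2 fold change of at least 1 was reached by 2 members over Control, against 24.9% of listed transcripts, by 3 over ASP+ACE, against 31.6%, and by 1 over ACE+ACE, against 30.2%. The Hox genes had been chosen from these same tables, so nothing follows from these counts about the members.

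In the authors' deposited tables the named neighbours in rank were Gdf5 and Cxcl14. By log2 fold change, below Hoxa13 over Control came Gdf5, a growth factor of forming joints, at 5.04. Over ASP+ACE Gdf5 stood between Hoxd13 and Hoxa13 at 5.84, with Cxcl14, which encodes a chemokine, below Hoxa13 at 5.06. Over ACE+ACE Cxcl14 stood just above Hoxa13 at 4.85, and an unnamed transcript just below it at 4.82.

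**Figure D2:**
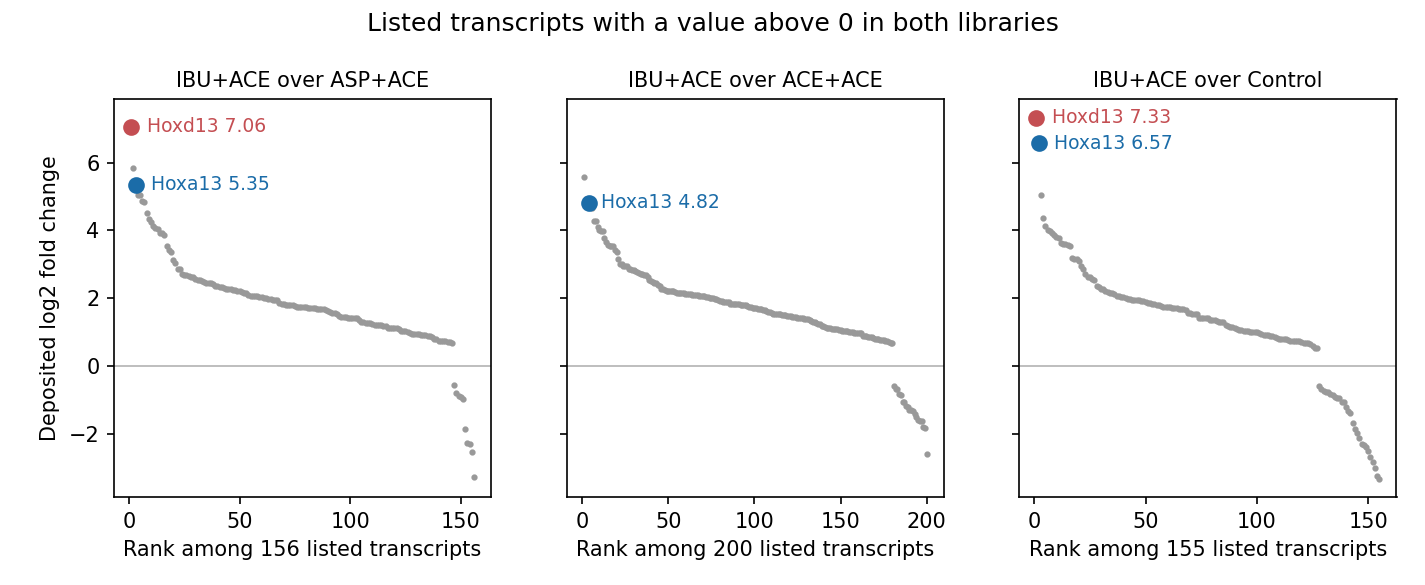
Deposited log2 fold changes of all listed transcripts with values above 0 in both libraries, ranked from high to low, for IBU+ACE over ASP+ACE, ACE+ACE and Control (156, 200 and 155 transcripts). Coloured points are Hoxd13 and Hoxa13 with their values; Evx2 is not drawn because its ASP+ACE level is listed at 0.

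The wider family was represented by these genes and little else. Of the 41 genes of the Hox and Evx list (39 Hox genes with Evx1 and Evx2), 3 are listed under their own name in any table and 38 are not. Of the 4 group 13 genes, Hoxa13 and Hoxd13 are listed and Hoxb13 and Hoxc13 are not. The protein-coding neighbours Hoxa11 and Evx1 of Hoxa13, Hoxd12 of Hoxd13 and Lnpk of Evx2 have no row of their own. Of a list of 10 named non-coding RNAs of the Hox clusters 0 are listed, Hottip among them, whose start lies 1895 bases from that of Hoxa13. None of the 9 TALE genes is listed either, the Meis, Pbx and Pknox factors that bind DNA together with Hox proteins. All tables together name 235 genes, a small part of the annotated genes, so most genes of any family have no row. These absences are therefore not read as a result about the Hox family.

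A non-coding gene of the HoxD cluster that was not on that list is listed, and its locus covers Hox genes. A transcript that carries its symbol, Gm28309, has a deposited locus from 74673916 to 74697586 on chromosome 2 (GRCm38), 5.61 to 29.3 kb downstream of the start of Hoxd13. The locus is 23671 bases long and overlaps 6 annotated genes, among them the whole of Hoxd12, Hoxd11 and Hoxd10. Its level was 2.22 FPKM in IBU+ACE, 0.385 FPKM in ASP+ACE, 0.421 FPKM in ACE+ACE and 0.373 FPKM in Control. It is listed in all 3 comparisons with IBU+ACE, with log2 fold changes of 2.53 over ASP+ACE, 2.40 over ACE+ACE and 2.57 over Control in the authors' deposited tables. Which of the genes in the locus the reads came from cannot be told from the tables, so no level is given for Hoxd12, Hoxd11 or Hoxd10.

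**Figure D3:**
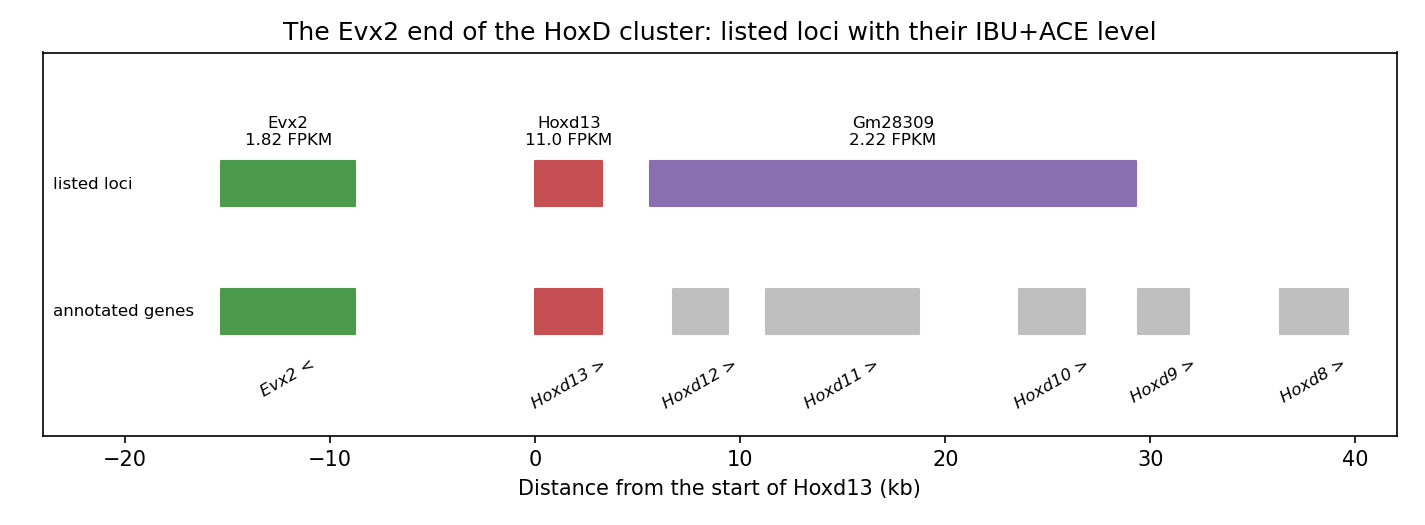
Map of the Evx2 end of the HoxD cluster by distance from the start of Hoxd13 in kb, with annotated Hox and Evx genes below (arrowheads give the strand) and the loci listed in the deposited tables above, each with its IBU+ACE level. Evx2, Hoxd13 and the Gm28309 locus form 3 adjacent listed loci, and Hoxd9 and Hoxd8 lie beyond the last of them.

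Evx2 and Hoxd13 are transcribed away from each other, with 8753 bases between their starts. Within 1 Mb of the Hoxd13 start 6 transcripts are listed in any table, against 1 around Hoxa13, which is Hoxa13 itself. Beyond Evx2 the 3 others lie 156.0 to 654.6 kb from Hoxd13, on the side of the cluster where the digit and genital bud enhancers are known to lie. The nearest, an unnamed transcript of 496 bases, had 0.423 FPKM in IBU+ACE and was listed at 0 in ACE+ACE. A630050E04Rik, annotated as a long non-coding RNA, whose deposited locus overlaps 3 annotated genes, had 1.80 FPKM in IBU+ACE and 0.867 FPKM in ACE+ACE. The farthest, an unnamed transcript, had 3.40 FPKM in IBU+ACE, 1.98 FPKM in ACE+ACE and 1.68 FPKM in Control. These transcripts were singled out after their values were seen, for their position.

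The 250 bases before the annotated start of each member are shown next, for description only. They come from RefSeq (GRCm38.p6), for which all 3 members matched by symbol. Capitals mark matches on either strand to CAATAAA, the AT-rich letters that group 13 Hox proteins are known to favour, to TATAAA, the TATA box, and to CCAAT.
Hoxa13 (chr6:52260881-52261130, minus strand): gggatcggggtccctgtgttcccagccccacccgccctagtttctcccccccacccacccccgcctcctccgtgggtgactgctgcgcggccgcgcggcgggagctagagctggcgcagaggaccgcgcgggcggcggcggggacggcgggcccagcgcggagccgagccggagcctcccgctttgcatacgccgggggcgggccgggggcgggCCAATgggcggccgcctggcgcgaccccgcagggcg
Hoxd13 (chr2:74667975-74668224, plus strand): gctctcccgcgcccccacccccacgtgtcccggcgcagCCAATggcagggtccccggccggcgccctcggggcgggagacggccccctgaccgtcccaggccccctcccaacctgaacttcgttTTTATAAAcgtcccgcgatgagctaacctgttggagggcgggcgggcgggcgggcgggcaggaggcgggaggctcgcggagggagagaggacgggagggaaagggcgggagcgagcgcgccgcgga
Evx2 (chr2:74659558-74659807, minus strand): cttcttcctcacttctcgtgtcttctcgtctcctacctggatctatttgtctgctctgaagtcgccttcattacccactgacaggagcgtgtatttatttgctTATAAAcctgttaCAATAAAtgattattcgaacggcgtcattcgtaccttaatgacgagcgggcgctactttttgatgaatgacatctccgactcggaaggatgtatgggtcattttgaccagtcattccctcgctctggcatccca

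In base composition the sequence of Evx2 stood apart from those of the Hox genes. Those of Hoxa13 and Hoxd13 were rich in G and C, at 80% and 74.4%, while that of Evx2 was at 45.6%, against a median of 52.4% over 32851 promoters of the same length. The Hoxd13 start used here is the RefSeq one and lies upstream of the deposited locus. TATAAA occurred once in the Evx2 sequence, 147 bases before the start, and at 2 overlapping places on opposite strands in that of Hoxd13, 126 and 124 bases before it. It is found in 12.4% of all promoters of this length. CAATAAA occurred in the Evx2 sequence alone among the members, 134 bases before the start, and in 4.20% of all promoters.

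CCAAT was found once each in the Hoxa13 and Hoxd13 sequences, 36 and 212 bases before the start, and in 33.8% of all promoters. GGGCGG, the letters bound by Sp1 type factors, had 5 matches in the Hoxa13 sequence, 7 in that of Hoxd13, some of them overlapping in a repeat, and 0 in that of Evx2, and was present in 32.7% of all promoters. TAATTA, a core that many homeodomains bind, had 0 matches in each of the 3 and was present in 4.84% of promoters. A match describes letters in the window and is not a binding site.

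The profiles nearest to that of Hoxa13 included those of mesenchyme and cartilage genes. Likeness was measured as the Euclidean distance between log2(FPKM + 0.1) profiles over the 4 libraries, each centred on its own mean, among the 92 other named transcripts with all 4 values. A transcript has all 4 values only if it was called in tables that span the libraries, so the candidates are themselves called transcripts. The 8 nearest were Gdf5 (distance 0.98), Msx1 (1.27), Xist (1.55), Cxcl14 (1.57), Kera (1.59), Col2a1 (1.64), Irx5 (1.77) and Gm13111 (1.82). Msx1 and Irx5 are homeobox genes of embryonic mesenchyme, Kera encodes the proteoglycan keratocan, and Col2a1 encodes the main collagen of cartilage.

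All 8 were listed in each of the 3 comparisons with IBU+ACE. Gdf5, the nearest, had 5.25 FPKM in IBU+ACE, 0.0916 FPKM in ASP+ACE, 0.174 FPKM in ACE+ACE and 0.159 FPKM in Control. The lowest of the 4 levels of Hoxa13 was in Control, while each of the 8 had its lowest level in ASP+ACE or ACE+ACE. Over the 3 libraries that hold a value of Hoxd13, its nearest transcript was Hoxa13 (0.77), followed by Gdf5 (1.21), and 6 of its 8 nearest were shared with the 8 of Hoxa13.

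**Figure D4:**
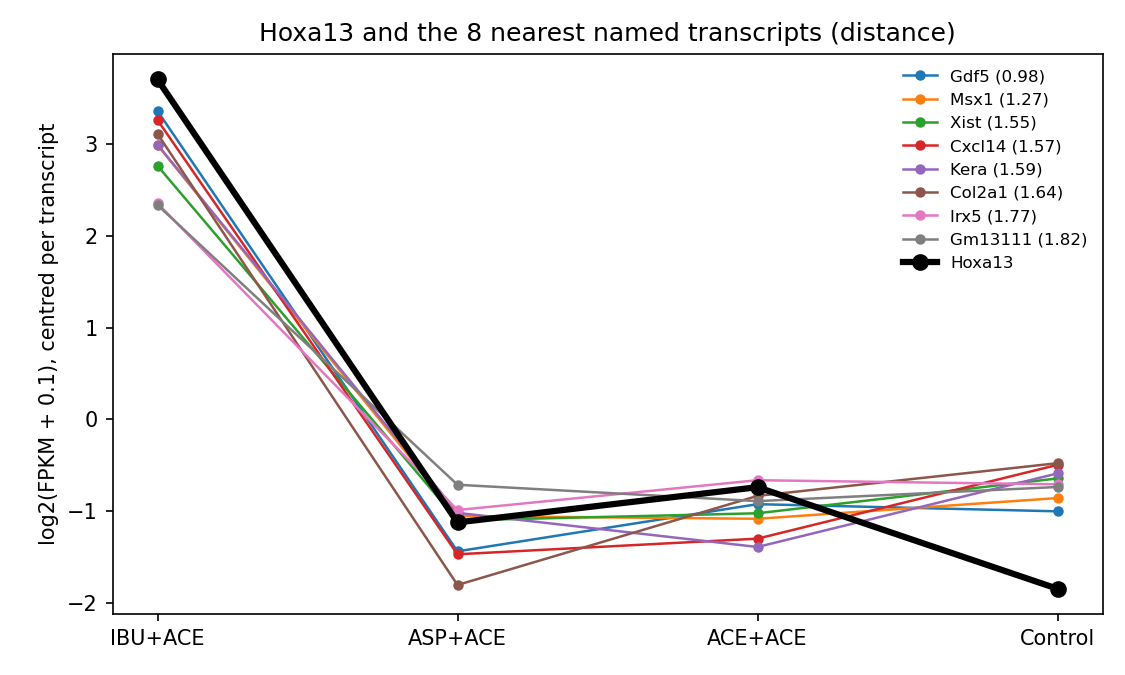
Profiles of Hoxa13 (black) and of the 8 named transcripts nearest to it over the 4 libraries, as log2(FPKM + 0.1) centred on each transcript's mean, with the distance to Hoxa13 in the legend. All 9 are highest in IBU+ACE, and the distances run from 0.98 for Gdf5 to 1.82 for Gm13111.

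Patterning genes of the limb and genital bud were listed in part. Of a list of 55 patterning genes, 10 rose and 0 fell in IBU+ACE over Control, with a median log2 fold change of 2.87 over their listed transcripts. Over ACE+ACE 10 rose and 0 fell, with a median of 3.53, and over ASP+ACE 9 rose and 0 fell, with a median of 1.999. Among all listed transcripts, 81.6% were higher over Control, 89.2% over ACE+ACE and 92.0% over ASP+ACE, so a list with members higher and none lower is near what the tables hold throughout. The ligands and antagonists listed were Gdf5, Bmp2, a bone morphogenetic protein, and Nog, an inhibitor of such proteins. Bmp2 had 2.09 FPKM in IBU+ACE, 0.897 in ASP+ACE, 0.937 in ACE+ACE and 0.979 FPKM in Control.

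Among the transcription factors, Irx1, Msx1 and Lmx1b had the highest log2 fold changes over Control, 4.38, 4.01 and 3.80 in the authors' deposited table. Their Control levels were low, at 0.121, 0.788 and 0.0611 FPKM, so these sizes and their order depend on low denominators. Lmx1b, which gives the limb its dorsal character, had 0.852 FPKM in IBU+ACE, 0.0290 in ASP+ACE, 0.0339 in ACE+ACE and 0.0611 FPKM in Control. Twist1, a mesenchyme factor, had 17.9 FPKM in IBU+ACE, 4.30 in ASP+ACE, 3.74 in ACE+ACE and 5.20 FPKM in Control, so it was well above the Hox genes in the low libraries. Gli3, an effector of hedgehog signalling, Msx2, Irx5 and Tfap2b made up the rest of the listed genes. The signals Shh, Fgf8 and Fgf10 and the hindlimb factors Tbx4 and Pitx1 have no row in any table. The list was written with earlier results of these data known, so its counts are no independent evidence.

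Some markers of tissues outside the gonad were also listed as higher in IBU+ACE, in tables where most listed transcripts were (81.6% over Control). Of 12 limb and dermal mesenchyme markers, 6 rose and 0 fell in IBU+ACE over Control, and their summed level over the 5 transcripts with all values was 47.7 FPKM in IBU+ACE, against 5.11 to 7.03 FPKM in the other libraries. Of 13 cartilage markers 4 rose, with a summed level of 44.1 FPKM over 2 transcripts in IBU+ACE, against 2.17 to 4.96 FPKM. Of 11 epidermal markers 4 rose, with a sum over 4 transcripts of 19.0 FPKM in IBU+ACE, against 3.43 to 4.65 FPKM. A transcript has all 4 values only through calls, most of which were higher in IBU+ACE, so these sums had to be high there and leave out the markers without values. No marker of these lists was listed at 0 in a library that holds its value. The part of these tissues in the levels of Hoxa13, Hoxd13 and Evx2 was not tested.

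Muscle and liver markers had calls in fewer of the IBU+ACE comparisons, and those of mesonephros and hindgut in none. None of the 9 markers of the mesonephros and its ducts and none of the 9 of the hindgut and cloaca is listed in any table. Muscle markers were not listed in IBU+ACE over Control, while 3 of 8 rose over ASP+ACE and 2 over ACE+ACE. In ASP+ACE over Control 1 muscle marker fell, and in ACE+ACE over Control 1 fell. Myh3, the muscle marker with all 4 values, had 4.54 FPKM in IBU+ACE, 2.41 in ASP+ACE, 1.85 in ACE+ACE and 4.46 FPKM in Control. Of 7 liver markers 0 were listed in IBU+ACE over Control, 3 rose over ASP+ACE and 5 over ACE+ACE. Among all listed transcripts 92.0% were higher over ASP+ACE and 89.2% over ACE+ACE, so muscle and liver markers that only rose there are near that share. In ASP+ACE over Control 2 liver markers fell, and in ACE+ACE over Control 5 fell. Among all listed transcripts 29 of 44 were lower in ASP+ACE over Control and 50 of 67 in ACE+ACE over Control. The muscle and liver markers that fell thus went the way of most transcripts listed there. The summed level of the liver markers was 220.2 FPKM in IBU+ACE, 130.8 in ASP+ACE, 58.3 in ACE+ACE and 208.9 FPKM in Control. Xist, the RNA of the inactive X chromosome, had 11.1 FPKM in IBU+ACE and 0.668 to 0.954 FPKM in the others, at a locus that covers 7 annotated genes.

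The testis label was not tested, and most markers that bear on it have no value, because only called transcripts have values. Xist has a value in every library, 11.1 FPKM in IBU+ACE and 0.668 to 0.954 FPKM in the others. What the Xist level says of the label was not tested. Of 14 somatic testis markers, Sox9 and Cst9 are listed, both higher in IBU+ACE than in Control. Of 10 germ cell markers Dnmt3l and Tdrd9 are listed, both higher as well. Among all listed transcripts 81.6% were higher in IBU+ACE over Control, so these directions are near that share. Sox9, a Sertoli factor that also works in cartilage, had 10.04 FPKM in IBU+ACE, 5.22 in ASP+ACE, 5.97 in ACE+ACE and 5.98 FPKM in Control, a log2 fold change of 0.75 over Control in the authors' deposited table. The remaining markers had no call and so no value.

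**Figure D5:**
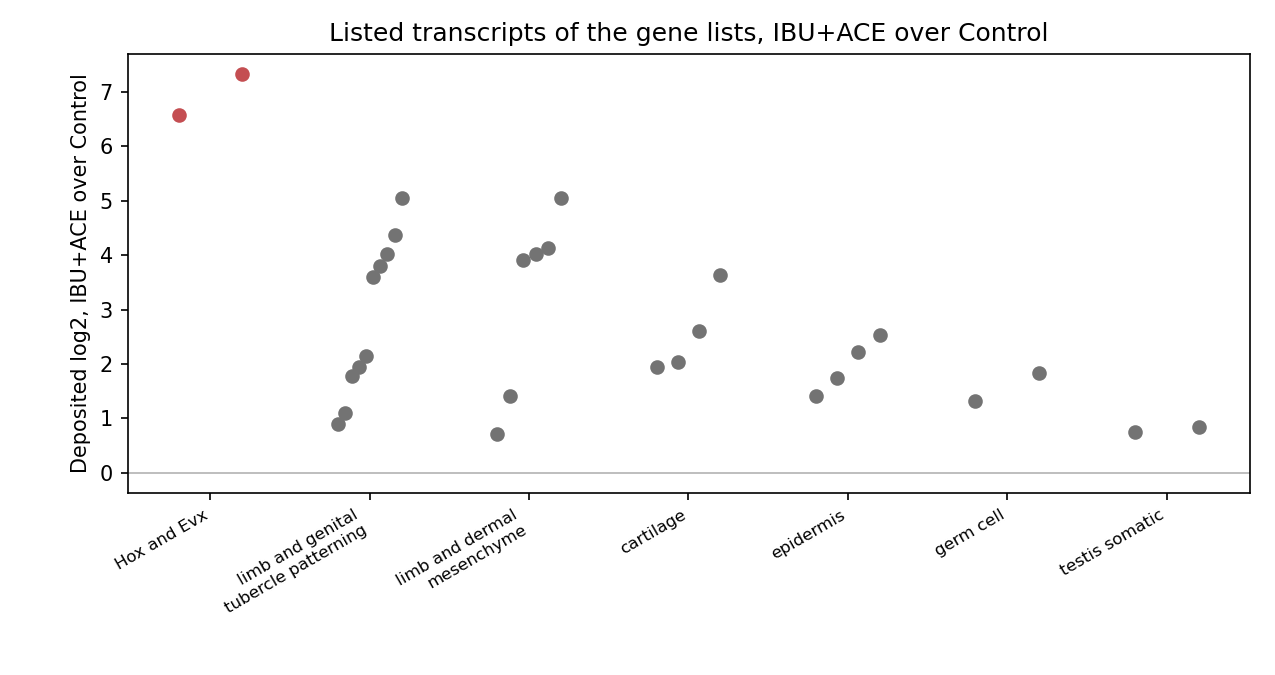
Deposited log2 fold changes of IBU+ACE over Control for the listed transcripts of 7 gene lists, 1 point per transcript. Hoxa13 and Hoxd13 (6.57 and 7.33) lie above the points of the other lists, which run up to 5.04 for Gdf5, a gene of both limb lists.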

How the data were processed

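Total RNA of testes was depleted of ribosomal RNA and sequenced as stranded paired reads of 75 nt on a NextSeq500, per the labels. Tools named in the submitters' processing notes are TopHat2 2.1, Bowtie2 2.2.6, Cufflinks 2.2.1, SAMtools 1.3, bcl2fastq 2.17 and FastQC, with the build GRCm38 and no settings or roles. The authors deposited 6 tables, 1 per pair of libraries. Each row holds an assembled transcript, its level in both libraries, and the authors' log2 fold change, p-value and q-value, per the file headers. The deposited levels are taken as FPKM from the Cufflinks layout, since the headers name no unit. All 726 rows are called significant, so the authors' tables hold called transcripts only. Inside the tables Control appears as EtOH. It was identified from the tables named for Control, because the other names match the drug titles.

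The files were parsed in Python 3.11.15 (pandas 2.3.3, numpy 2.4.6). Commas used as decimal marks were read as points, and 1 was added to each start. Values of 1 library were combined across tables, and 0 disagreed. Recomputed log2 fold changes differed from the deposited ones by at most 1.09e-05. Reading, counting and the profile distance were tested on simulated data. Groups of 1 library allow no test, and an unknown depth allows no interval. It is not stated whether strand was used in counting, nor which isoform a row stands for. Named are the 3 members, listed genes of the Hox, non-coding, TALE and limb lists, the genes beside each member, rank neighbours, the 8 nearest profiles and marker genes. The members and lists were chosen with earlier results of these data known. Alternatives added 0.1 or 1 FPKM, required 1 FPKM, a log2 fold change of 3 or a q of 0.01, and changed the distance.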

Additional observations from a re-analysis of the deposited data

How the results depend on the processing

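Every log2 fold change of the members stayed positive but became smaller when a constant was added to both levels, because the low libraries lie below 1 FPKM. After 0.1 FPKM was added, Hoxa13 had 5.56 over Control, 4.83 over ASP+ACE and 4.45 over ACE+ACE, and Hoxd13 had 6.04 over Control and 5.92 over ASP+ACE. After 1 FPKM was added, the values were 3.21, 3.05 and 2.94 for Hoxa13 and 3.48 and 3.47 for Hoxd13, in the same order. At a q of 0.01 or less the number of members listed was 0 in every table, which says nothing of the members, since all 726 rows have a q of 0.0310 and none can pass. Ranks by log2 fold change moved by at most 2 places with 0.1 or 1 FPKM added, an alternative chosen after seeing the data. Of the 8 profiles nearest to Hoxa13, 4 were kept when profiles were not centred, 6 with 1 FPKM added, and 6 were shared with the nearest of Hoxd13 over 3 libraries, the last chosen after seeing the data. The other counts stayed within 1.5 times. No paired analysis was possible because each group has 1 library. Depth is unknown, so how far the low levels can be told apart is unknown too.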

Other observations

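Evx2 was 1 of 14 transcripts that are listed at 0 in ASP+ACE and higher in IBU+ACE. Of these, 2 carry a gene name, Evx2 and Psca, a surface antigen gene of epithelia. The Evx2 level in IBU+ACE, 1.82 FPKM, ranked 2 among them. An unnamed transcript of 178 bases on chromosome X (GRCm38, 24066498 to 24066675) had 4.16 FPKM in IBU+ACE. The remaining 12 ran from 0.308 FPKM for Psca to 0.563 FPKM. These transcripts were chosen after their values were seen.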
